A study of Mus musculus with 44 samples.

Results

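The genes described here are 43 interferon response genes of the mouse, chosen as a list by name. They were followed in single-cell RNA counts from small-intestinal organoids. All 43 were among the 21099 genes of the count table for organoids treated with RANKL alone, and 30 were among the 9257 genes of the table for organoids treated with RANKL and CSRM617. Isg15, Oas1a, Oas1g, Oas2, Irf1, Mx2, Dhx58, Usp18, Bst2, Zbp1, Gbp2, Gbp3 and Herc6 were therefore analysed in the RANKL arm alone.

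Interferons are cytokines that signal through receptors and Janus kinases to transcription factors, among them STAT2 and IRF9. The complex that holds both binds the interferon-stimulated response element (ISRE) and switches on a wide set of antiviral genes, while interferon gamma acts through the gamma-activated site (GAS). The induced proteins include sensors of foreign RNA, enzymes that block or degrade RNA, membrane proteins that hinder viral entry, and the factors STAT2, IRF7 and IRF9 themselves. In the intestinal epithelium, type III interferon is known as a main inducer of these genes.

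The organoids came from 1 female Lgr5GFPDTR/+ mouse, a line named as wild type in which an allele of the stem cell gene Lgr5 carries GFP and the diphtheria toxin receptor. All groups were kept in ENR medium (EGF, Noggin and R-spondin) with 3 µM of the GSK3 inhibitor CHIR99021 and 1.5 mM of the histone deacetylase inhibitor valproic acid for 3 days, and then in ENR medium for 1 day, before treatment. The RANKL arm received 100 ng/mL RANKL, the cytokine that induces M cells, and held 3 plates for each day from 0 to 9. The RANKL+CSRM617 arm received the same with 40 µM CSRM617, an inhibitor of the transcription factor ONECUT2, and held 2 plates for each day from 0 to 6. The labels do not say whether the day 0 plates had met these agents. Whether plates of 1 day were separate cultures is not said in the labels, and p-values then cover only how these plates vary, possibly for technical reasons. The arms are separate tables, so arm and experiment cannot be told apart, and plates of ENR medium alone were not analysed here.

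Cells with at least 1000 molecular identifiers (UMIs) were kept, 6558 cells in the RANKL arm and 1673 in the other. Plates held 26 to 282 and 24 to 223 such cells, with 155940 to 1640523 and 47976 to 835772 UMIs. The smallest RANKL day 0 plate, replicate 2, had 26 cells. Wells on all plates carry the same set of barcodes by design, so a cell was identified by its plate and well. Levels are CPM, the UMIs of a gene relative to all UMIs of the plate, scaled by TMM. On RANKL day 0 the 6 epithelial markers summed to between 3357 and 3828 CPM per plate, the 5 T and B cell markers in the table to at most 3.8 (Cd3e and Cd3g at 0), the 4 myeloid markers to at most 6.44 (Adgre1 and Lst1 at 0) and the 4 fibroblast markers to at most 1.9 (Col1a1, Pdgfra and Dcn at 0). Endothelial (Pecam1, Kdr) and tuft cell markers (Dclk1, Trpm5, Avil, Pou2f3) had no UMI on those plates.

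The promoters of 4 members show the sequence elements through which the pathway acts, and they cover 3 of the time courses described further on. Ifit1 and Isg15 were high on day 0 and fell again later. Irf1 rose on day 1, and Ifitm3 was not called on day 1 but was called in the later comparison. Each sequence runs 5′ to 3′ on the gene's strand, from 250 bases before to 50 bases after the start site in RefSeq (GRCm38.p6). Capitals mark ISRE cores, searched as GAAANNGAAA or its reverse complement TTTCNNTTTC, and GAS cores, searched as TTCNNNGAA, which reads the same on both strands. Ifit1 (chr19:34640639-34640938, plus strand) and Isg15 (chr4:156200769-156201068, minus strand) carry 2 and 3 ISRE cores, those of Isg15 overlapping. Irf1 (chr11:53769764-53770063, plus strand) carries 1 GAS core and no ISRE core. Ifitm3 (chr7:141010695-141010994, minus strand) carries 2 ISRE cores and 1 GAS core, which overlaps an ISRE core.
Ifit1: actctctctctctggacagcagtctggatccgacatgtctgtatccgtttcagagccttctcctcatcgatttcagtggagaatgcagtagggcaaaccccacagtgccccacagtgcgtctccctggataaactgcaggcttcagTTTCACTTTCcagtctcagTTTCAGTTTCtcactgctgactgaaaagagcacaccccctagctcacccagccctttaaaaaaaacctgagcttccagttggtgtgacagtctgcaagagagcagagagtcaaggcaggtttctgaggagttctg
Isg15: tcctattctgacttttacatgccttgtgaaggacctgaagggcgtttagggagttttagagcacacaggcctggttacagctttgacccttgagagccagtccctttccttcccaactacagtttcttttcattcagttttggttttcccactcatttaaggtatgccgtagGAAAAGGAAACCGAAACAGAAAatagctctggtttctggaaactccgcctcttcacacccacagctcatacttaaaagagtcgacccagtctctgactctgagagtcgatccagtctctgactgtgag
Irf1: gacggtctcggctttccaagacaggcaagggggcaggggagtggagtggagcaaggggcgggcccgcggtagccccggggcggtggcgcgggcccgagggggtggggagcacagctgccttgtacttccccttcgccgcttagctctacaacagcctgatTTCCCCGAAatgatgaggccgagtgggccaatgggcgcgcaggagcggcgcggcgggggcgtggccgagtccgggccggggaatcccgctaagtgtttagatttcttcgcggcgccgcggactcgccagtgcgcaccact
Ifitm3: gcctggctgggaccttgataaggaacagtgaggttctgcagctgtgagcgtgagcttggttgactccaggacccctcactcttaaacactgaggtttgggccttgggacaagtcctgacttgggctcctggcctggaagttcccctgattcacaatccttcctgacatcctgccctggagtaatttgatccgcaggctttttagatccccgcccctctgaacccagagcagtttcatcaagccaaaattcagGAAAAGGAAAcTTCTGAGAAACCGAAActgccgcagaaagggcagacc

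A promoter was found by symbol for 32 of the 43 members. An ISRE core stood in at least 1 listed promoter of 16 of them (50%), against 1079 of 27025 genes (3.99%). A GAS core stood in 8 of the 32 (25%), against 9.55% of all genes. Among members called lower after day 0 with no later change, 4 of 7 matched promoters held an ISRE core, and among those with a later change 7 of 18 did. These are letter matches within the window. Not matched were Oas2, Mx1, Mx2, Dhx58, Usp18, Ifi27, Ifi27l2b, Parp9, Parp14, Zbp1 and Rtp4.

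Most of the interferon response genes were at their highest on day 0 of the RANKL arm and were lower from the first day of treatment. Between day 0 and day 1, 31 of the 35 members tested fell and 1 rose (edgeR quasi-likelihood test, adjusted p of 0.05 or less over all genes). Over all 10000 genes tested, 12.3% fell and 11.4% rose. The median log2 change of the tested members was -1.92, and that of all tested genes was 0.0042. The largest falls were those of Ifit3 (log2 change -5.12 ± 0.51, SE), Rsad2 (-4.67 ± 0.63) and Ifi44 (-4.05 ± 0.42), 3 members that passed the filter on low counts only through their day 0 plates. Among members that pass without those plates, Ifit1 (-2.82 ± 0.41), Rtp4 (-2.77 ± 0.26) and Oasl2 (-2.68 ± 0.22) fell most. Irf1 was the member that rose, while Herc6 (-1.28 ± 0.49, adjusted p = 0.0532), Parp9 (-0.92 ± 0.45, adjusted p = 0.143) and Ifitm3 (0.03 ± 0.15, adjusted p = 0.905) did not pass.

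The 3 day 0 plates lay above all 27 later RANKL plates for 29 of the 43 members (67.4%), and for 28 of the 35 tested members (80%), against 439 of all 10000 tested genes (4.39%). Some members passed the filter on low counts only through their day 0 counts and had to differ, so the test was repeated on genes that pass without the day 0 plates. Of the 27 members left, 24 fell and 1 rose. Ifit3, Isg15, Oas2, Oas3, Mx2, Rsad2, Bst2 and Ifi44 were among the members that passed only with day 0. All of these are also among the 28 whose day 0 plates lay above all others, a share that was not counted again without them. The remaining 8 members, Oas1g, Mx1, Dhx58, Usp18, Zbp1, Gbp2, Gbp3 and Gbp7, were too low to be tested, with 4 to 115 UMIs each over all 30 plates. With no filter on low counts 35 of the 43 fell and 1 rose. Against the same day 0 plates, 33, 32, 31 and 32 of the 35 tested members were lower on days 2, 3, 4 and 5, where 11.2%, 10.2%, 11.4% and 17.2% of all tested genes were. On each of days 6 to 9, 33 were lower, against 19.4%, 16.5%, 17.8% and 18.4% of all genes.

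**Figure D1:**
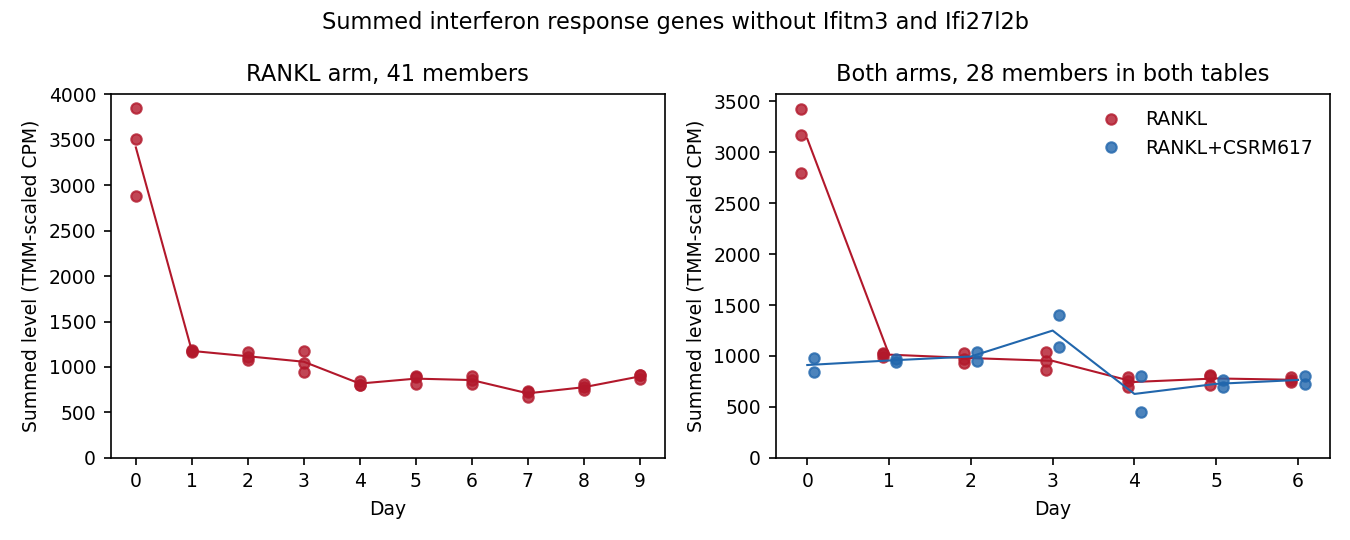
Summed level of the interferon response genes without Ifitm3 and Ifi27l2b (CPM, vertical axis) by day (horizontal axis), 1 point per plate and a line through the daily means, for the 41 members in the RANKL arm (left) and for the 28 members in both tables with both arms on 1 scale (right). The RANKL day 0 plates sit at 2887 to 3851 CPM, the later RANKL plates at 673.6 to 1184, and the RANKL+CSRM617 day 0 plates at 838.1 and 984.1 on the shared scale.

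Summed over 41 members, without the highly counted Ifitm3 and Ifi27l2b (a choice made after their values were seen), the day 0 plates stood at 3511, 2887 and 3851 CPM. Day 1 plates stood at 1170, 1176 and 1184 CPM, below every day 0 plate. The sum was lowest on day 7, at 736.7, 719.9 and 673.6 CPM. Day 9 plates, at 907.8, 914.5 and 865 CPM, lay above the day 7 plates and below the day 1 plates. In summed plates fewer cells with the RNA and less RNA per cell cannot be told apart, and the cells are described further on.

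Among the transcription factors, Irf9, the DNA-binding subunit of the ISRE complex, stood at 81, 148 and 90.4 CPM on day 0 and at 24.9, 25.2 and 17.2 CPM on day 1. Days 2 to 9 gave 5.04 to 33.9 CPM, so that the day 0 plates did not overlap with any later plate. The change was -2.08 ± 0.27 (log2, SE; edgeR adjusted p = 3.23e-07). Stat2, its partner, stood at 68.1, 51.3 and 105 CPM on day 0 and at 39.9, 45.9 and 30.8 CPM on day 1, with 13.1 to 43 CPM later. Its fall of -1.06 ± 0.25 (edgeR adjusted p = 0.00168) also separated the plates, but rested on day 0 replicate 3, without which it was -0.72 (adjusted p = 0.0936). Irf7, the factor that amplifies interferon production, went from 79.1, 51.3 and 74.2 to 27.4, 19.9 and 17.2 CPM (-1.74 ± 0.28). It had no UMI on 2 of the 3 day 4 plates and reached at most 20.9 CPM from day 2 on.

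Irf1, a factor that interferon gamma and NF-kB signalling are known to induce, took the opposite course. It stood at 28.5, 19.2 and 31.4 CPM on day 0 and at 82.3, 63.4 and 63.1 CPM on day 1, with no overlap, a rise of 1.27 ± 0.28 (log2, SE; edgeR adjusted p = 0.000864). With each cell thinned to 1000 UMIs the rise was 1.29 and just missed the threshold (adjusted p = 0.0501). The plates of days 2 and 3 held 52.7 to 85.3 CPM. By days 7 to 9 it was back at 20 to 39.5 CPM, a range that includes 2 of the 3 day 0 plates. Of its 2 listed promoters, the printed one held a GAS core and the other neither core. Ifit2 and Ifi35, which fell on day 1, also had a GAS core and no ISRE core.

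The RNA sensors fell by smaller steps. Ddx58, which encodes RIG-I, a sensor of RNA with 5′ triphosphates, stood at 99.4, 154 and 120 CPM on day 0 and at 46.1, 52.7 and 49.5 CPM on day 1 (-1.24 ± 0.21), and later plates held 19.9 to 75 CPM. Ifih1, which encodes MDA5, a sensor of long double-stranded RNA, stood at 92.9, 57.7 and 135 CPM on day 0 and at 58.6, 57.3 and 66.7 CPM on day 1. These plates overlapped, and the fall of -0.79 ± 0.23 (edgeR adjusted p = 0.00957) was lost without day 0 replicate 3 (-0.47, adjusted p = 0.247) and without day 1 replicate 2 (-0.69, adjusted p = 0.0552). Trim25, a ubiquitin ligase that activates RIG-I, went from 149, 154 and 161 to 72.3, 86.4 and 81.8 CPM (-0.95 ± 0.17) and did not exceed 116 CPM later. The sensor genes Dhx58, with 5 UMIs on day 0 and 14 in all, and Zbp1, with 17 and 36, were too sparse for a test.

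The effectors that act on RNA showed some of the widest gaps. Oasl2, an OAS-like protein, stood at 243, 180 and 235 CPM on day 0, at 29.3, 36.7 and 40.2 CPM on day 1 and at 0 to 38.7 CPM on days 2 to 9. Its fall was -2.68 ± 0.22 (log2, SE; edgeR adjusted p = 2.2e-11), and the lowest day 0 plate was above every later plate. Ifit1, which binds RNA caps that lack 2′-O methylation, stood at 240, 83.4 and 355 CPM on day 0, the lowest value being that of the small replicate 2, and at 27.4, 41.3 and 38.7 CPM on day 1 (-2.82 ± 0.41). Eif2ak2, which encodes the kinase PKR, went from 111, 96.2 and 160 to 60.5, 53.5 and 68.1 CPM (-1.09 ± 0.19). Ifit3, a partner of IFIT1, fell from 107, 51.3 and 98 to 3.12, 2.29 and 2.15 CPM and had no UMI on day 4, where day 0 was at least 37.9-fold higher (against 3 counts over the 3 plates).

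Of the other RNA effectors, Oasl1, Oas1a, Oas2, Oas3 and Ifit2 fell between day 0 and day 1 by 2.02 to 2.49 on the log2 scale. Oas2 did not pass without day 0 replicate 1 (-1.42, adjusted p = 0.168) or with DESeq2 (-2.18, adjusted p = 0.0961). Ifit2 had 18.4 and 51.4 CPM on day 0 replicates 1 and 3 and no UMI on replicate 2, and its fall was lost without replicate 3 (-0.9996, adjusted p = 0.177). Oas1g had 44 UMIs on day 0 of 115 in all. Close copies such as Oas1a and Oas1g, Ifit1 and Ifit1bl1, Ifit3 and Ifit3b, or Mx1 and Mx2 can share reads, so that how counts were divided between them is uncertain.

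In the ISG15 system, Isg15, the ubiquitin-like protein joined to other proteins in this response, stood at 19.3, 19.2 and 44.7 CPM on day 0 and at 4.99, 6.12 and 5.02 CPM on day 1 (-2.47 ± 0.47). It had no UMI on 10 of the 24 plates of days 2 to 9. Herc6, a ligase of this system, had 16.6, 12.8 and 33.3 CPM on day 0 and 9.35, 10.7 and 8.61 CPM on day 1, and Usp18, which removes ISG15, had 4 UMIs in all. Among the GTPases, Mx2 stood at 26.7, 12.8 and 24.7 CPM on day 0 and at 3.74, 3.82 and 4.3 CPM on day 1 (-2.57 ± 0.46), and Mx1 had 23 of its 55 UMIs on day 0. The guanylate-binding proteins Gbp2, Gbp3 and Gbp7, classic targets of interferon gamma, had 2, 10 and 17 UMIs on day 0.

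Of the ADP-ribosyltransferases and their partner, 3 fell and Parp9 did not pass. Dtx3l, a ubiquitin ligase that works with PARP9, stood at 185, 186 and 195 CPM on day 0 and at 75.4, 91.7 and 106 CPM on day 1 (-1.06 ± 0.17), and the highest later plate had 151 CPM. Parp14 went from 74.5, 51.3 and 118 to 26.2, 35.2 and 28 CPM (-1.59 ± 0.23), and Parp12 from 64.4, 57.7 and 51.4 to 14.3, 19.9 and 15.8 CPM (-1.80 ± 0.32). Parp9 stood at 14.7, 6.42 and 28.6 CPM on day 0 and at 9.98, 7.64 and 13.6 CPM on day 1, and these plates overlapped. Parp9 and Dtx3l lie next to each other, and reads of neighbouring genes may be divided between them.

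Of the membrane and secreted proteins, Lgals3bp, a secreted glycoprotein, fell from 428, 314 and 367 to 174, 165 and 170 CPM (-1.16 ± 0.17). Rtp4, a chaperone of membrane receptors, fell from 221, 173 and 189 to 27.4, 28.3 and 31.6 CPM (-2.77 ± 0.26), with 4.62 to 39.8 CPM later. Bst2, the tetherin that holds budding virus, went from 12.9, 25.7 and 24.7 to 6.24, 4.59 and 4.3 CPM (-1.92 ± 0.43).

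Ifitm3, which blocks viral fusion with the cell membrane, did not share this course. Its day 0 plates held 500, 776 and 538 CPM and its day 1 plates 647, 527 and 616 CPM. It was lowest on day 3, at 264, 244 and 257 CPM, and stood at 790, 599 and 807 CPM on day 7. All 3 day 3 plates were thus below every plate of the other 9 days, and the day 0 plates lay within the range of days 4 to 9.

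**Figure D2:**
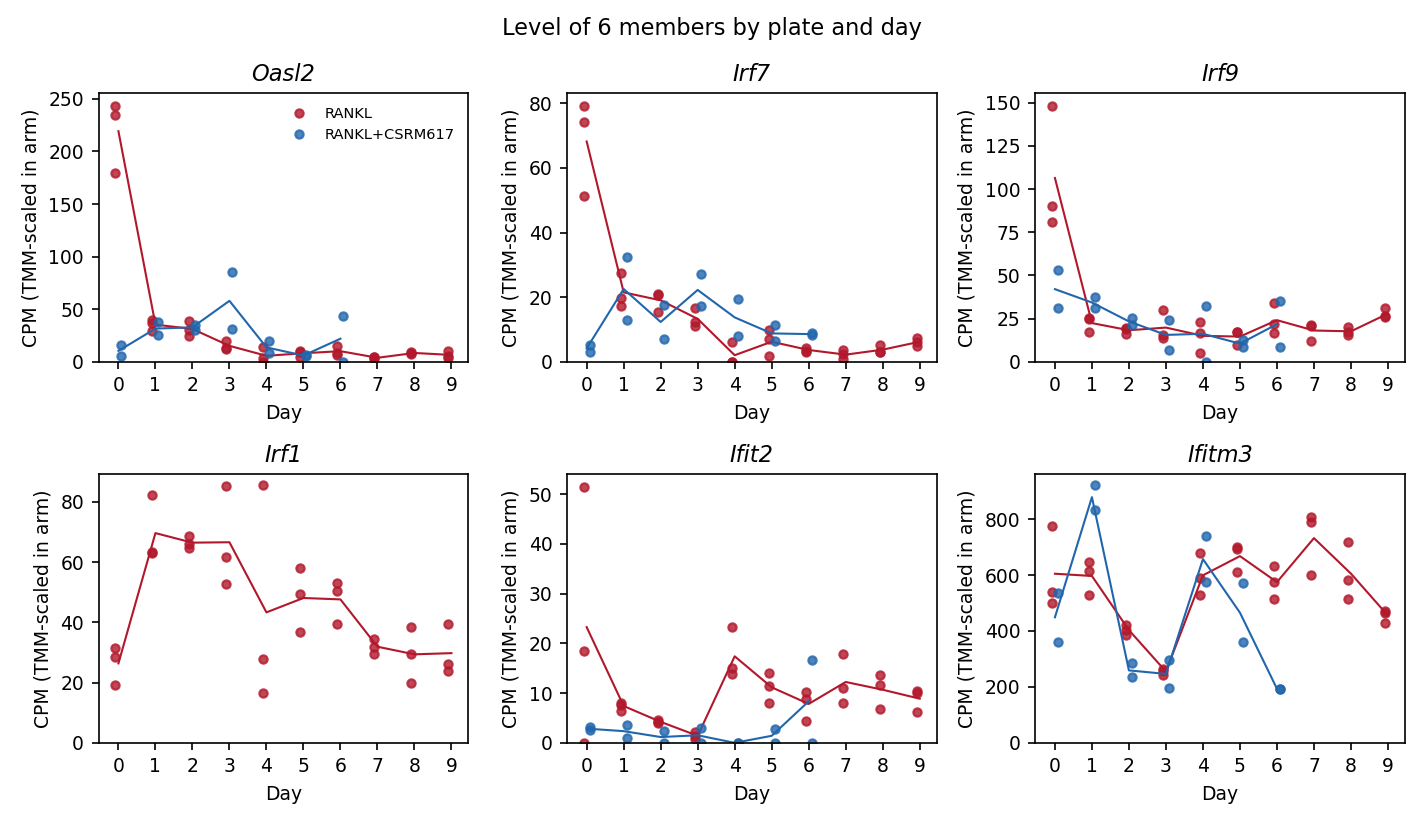
Level of 6 members (TMM-scaled CPM within an arm, vertical axes) by day (horizontal axes), 1 point per plate and a line through the daily means, with RANKL in red and RANKL+CSRM617 in blue. Oasl2, Irf7 and Irf9 are high in the RANKL day 0 plates, Irf1 rises from 19.2 to 31.4 CPM on day 0 to 63.1 to 82.3 CPM on day 1, Ifit2 is higher again from day 4, and Ifitm3 dips on day 3; Irf1 was analysed in the RANKL arm alone.

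Both enzymes of nucleotide and lipid metabolism were high on day 0. Rsad2 encodes viperin, which makes a chain-terminating nucleotide. It stood at 29.4, 64.2 and 38.1 CPM on day 0 and at 2.49, 1.53 and 0 CPM on day 1, and day 4 had no UMI, at least 13.7-fold lower than day 0. Cmpk2, a mitochondrial nucleotide kinase whose gene neighbours Rsad2, went from 59.8, 32.1 and 101 to 13.7, 9.94 and 20.1 CPM (-2.29 ± 0.34).

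Of the remaining members, Ifi27l2b, a small mitochondrial protein of the IFI27 family, stood at 1380, 1110 and 1500 CPM on day 0 and at 360, 314 and 360 CPM on day 1 (-1.96 ± 0.14). Days 2 to 9 ranged from 132 to 310 CPM. Samd9l, a translation repressor, went from 319, 314 and 352 to 134, 144 and 149 CPM (-1.22 ± 0.13), and Ifi27 from 236, 257 and 210 to 76.7, 63.4 and 46.6 CPM (-1.87 ± 0.23). Xaf1, an antagonist of apoptosis inhibitors, fell by 2.55 and Ifi44 by 4.05 on the log2 scale. Ifi35 fell by 0.78 (SE 0.25, edgeR adjusted p = 0.0218), a call lost without day 0 replicate 1 (-0.60, adjusted p = 0.193), day 1 replicate 2 (-0.63, adjusted p = 0.118) or day 1 replicate 3 (-0.68, adjusted p = 0.0928), and with library totals in place of TMM (-0.72, adjusted p = 0.0518).

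**Figure D3:**
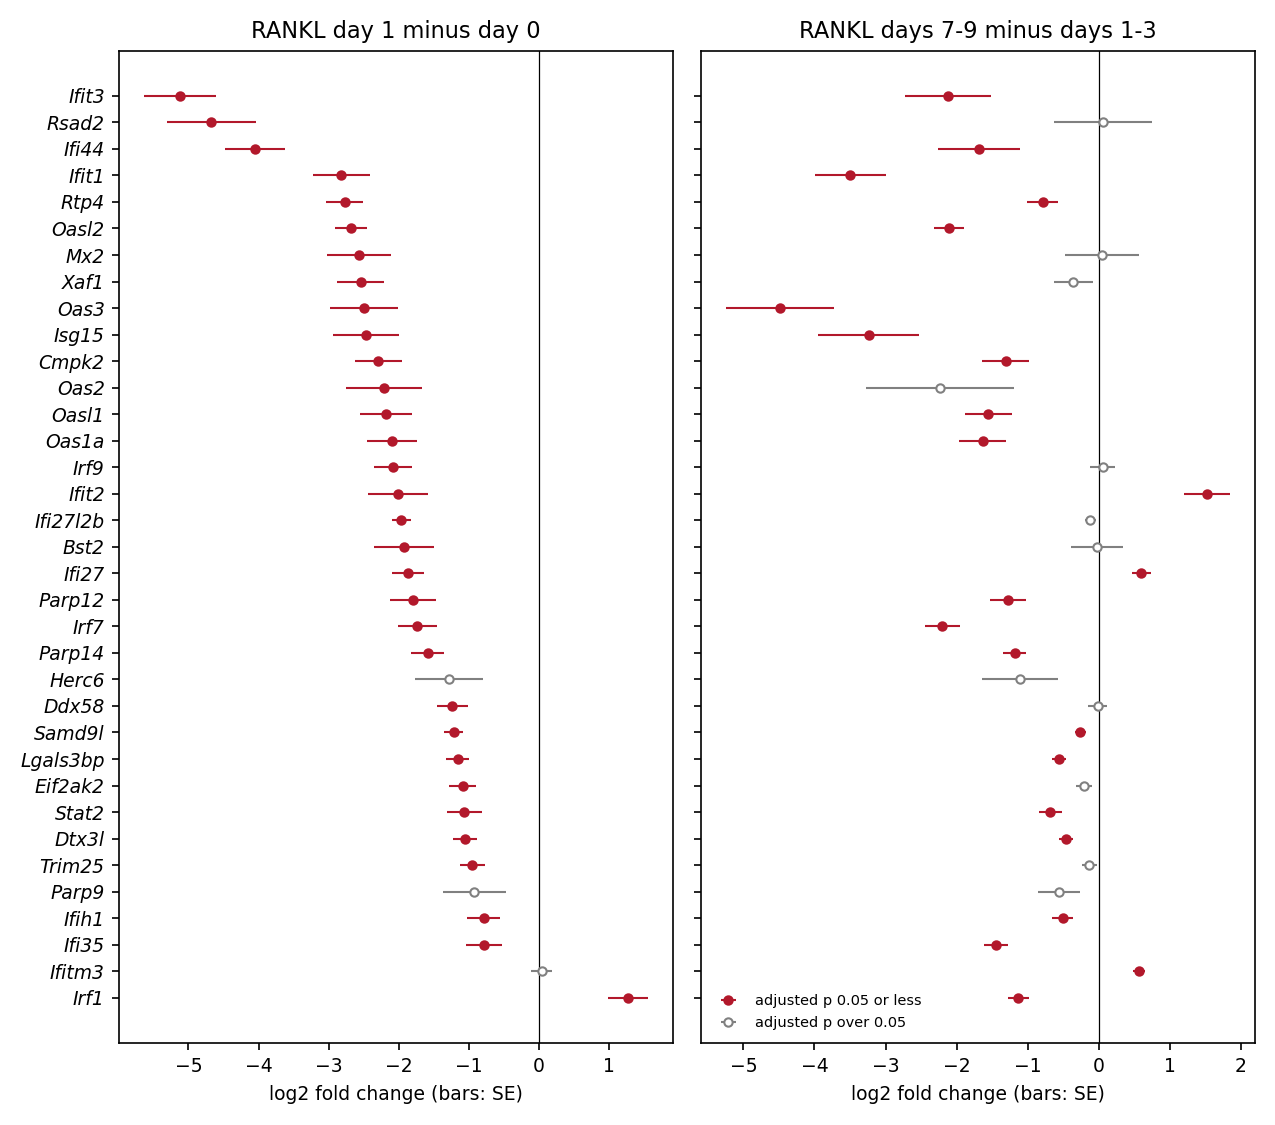
Log2 fold change with its SE (horizontal axes) of the 35 tested members (rows), for RANKL day 1 minus day 0 (left) and days 7-9 minus days 1-3 (right); filled red points passed the edgeR test and open grey points did not. Nearly all points at left lie below 0, with Irf1 at 1.27, and at right Ifit2, Ifi27 and Ifitm3 lie above 0.

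Within the RANKL treatment, days 7 to 9 were compared with days 1 to 3 to find members that changed later. Of the 35 tested, 20 fell and 3 rose, where 24.1% of all tested genes fell and 24.6% rose. The median was -0.68 for the members and 0.0184 for all genes. By both tests, 10 members were high on day 0 only: Oas2, Irf9, Mx2, Rsad2, Ddx58, Bst2, Ifi27l2b, Xaf1, Trim25 and Eif2ak2. Of these, Oas2, Mx2, Rsad2 and Bst2 passed the filter only through day 0, which fixed their first call, and had few counts later. Another 21 were high on day 0 and changed later, 19 down and 2 up. Ifitm3 passed only the later test, Irf1 rose on day 1 and fell later, Parp9 and Herc6 passed neither test, and 8 were not tested. Against day 0, Herc6 was called lower on 8 of days 1 to 9, Parp9 on 4 and Ifitm3 on 2. Not passing the later test does not show that a member stayed level.

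The later falls carried several members close to the limit of counting. Oas3 had 53 UMIs on days 1 to 3 and 1 UMI on days 7 to 9, a ratio of 40.8 (95% counting interval 7.02 to 1640). Ifit1 fell by 3.49 ± 0.50 and Isg15 by 3.24 ± 0.71 on the log2 scale. Irf7 fell by 2.20 ± 0.25, with 11.1 to 27.4 CPM on the plates of days 1 to 3 and 0.847 to 7.4 CPM on those of days 7 to 9, which did not overlap. Oasl2 fell by 2.11 ± 0.21 and likewise did not overlap, with 12.6 to 40.2 against 2.64 to 10.4 CPM. Parp14 (-1.19 ± 0.16), Ifi35 (-1.45 ± 0.17) and Irf1 (-1.13 ± 0.15) fell by smaller steps. The later falls of Ifit3 and Ifi44 rested on day 3 replicate 2: without it they were -1.28 (adjusted p = 0.218) and -0.50 (adjusted p = 0.778). With each cell thinned to 1000 UMIs, those of Stat2, Rtp4, Dtx3l, Ifih1, Ifi44 and Samd9l did not pass. That of Samd9l was then -0.0151 (edgeR adjusted p = 0.944).

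Later rises were seen in Ifit2, Ifi27 and Ifitm3. Ifit2 held 8.11, 7.64 and 6.46 CPM on day 1, 1.36, 0.79 and 2.08 CPM on day 3, and 15.1, 13.9 and 23.2 CPM on day 4. From day 4 on every plate lay between 4.35 and 23.2 CPM, above all 3 day 3 plates, and the later comparison gave a rise of 1.52 ± 0.32 (log2, SE; edgeR adjusted p = 0.000183). Its family members Ifit1 and Ifit3 fell in the same comparison. Ifi27 rose by 0.60 ± 0.13 and was at 129, 146 and 114 CPM on day 9, below its day 0 plates. Ifitm3 rose by 0.57 ± 0.08 (edgeR adjusted p = 6.27e-07), from days that included its lowest plates, those of day 3.

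Members of the pathway outside the list showed a mixed course. Of 46 other interferon-stimulated genes, 41 were in the RANKL table and 25 were tested. On day 1, 13 of the 25 fell and 1 rose, where 12.3% of all tested genes fell and 11.4% rose. The falls included the ubiquitin ligase Trim30a, the GTPases Irgm2 (-2.71 ± 0.40) and Irgm1 (-1.88 ± 0.19), and Lgals9 (-2.36 ± 0.17), and Ifitm1, a neighbour and relative of Ifitm3, rose by 1.04 ± 0.37. Ifnlr1, the receptor chain that is particular to type III interferon, fell by 2.38 ± 0.62 on day 1 and rose by 1.42 ± 0.42 later. Its partner Il10rb fell by 0.52 ± 0.18, whereas Ifngr1 (0.39 ± 0.14) and Ifngr2 (0.52 ± 0.15), the receptor of interferon gamma, rose on day 1.

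Some regulators rose on day 1 as Irf1 did. Socs1, the feedback inhibitor of Janus kinases, rose by 1.61 ± 0.46 and later fell by 1.88 ± 0.25. Ikbke, a kinase of the sensing pathway, rose by 1.70 ± 0.38 and later fell by 1.14 ± 0.19, and Jak1 rose by 0.48 ± 0.15. In the later comparison Gbp8 (2.69 ± 0.31), Ifitm1 (1.53 ± 0.14) and Ifitm2 (0.78 ± 0.22) were the 3 other interferon-stimulated genes that rose, and 14 fell. Over all tested genes 24.6% rose and 24.1% fell in that comparison. The genes of 6 interferons on the list were not analysed here.

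Other cell features moved along with the members between day 0 and day 1. Of 7 enterocyte markers, 3 were called lower (Alpi, Anpep and Fabp1) and none higher. The sum of the 7 went from 4426 to 6170 CPM on day 0 plates to 2027 to 3526 on day 1 plates, with no marker at 0. Reg3b, which was not called, had 15, 0 and 62 UMIs on day 0 and 465, 127 and 30 on day 1. Of 9 immediate early genes, 4 fell and 2 rose. Of 5 stem cell markers 2 fell (Lgr5 and Smoc2) and 3 rose, and 4 of 7 M cell markers rose. On day 3 the enterocyte markers summed to 6159 to 6761 CPM and the 41 members to 1047, 1180 and 945.9 CPM, below every day 0 plate. The makeup of the marker sum had changed by then: 2 of the 7 markers were lower than on day 0 and 2 higher. Fabp1 had 1943, 132 and 1287 UMIs on the day 0 plates and 83, 117 and 68 on those of day 3. The part of all these features in the members' change was not tested.

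The RANKL+CSRM617 arm lacked the day 0 peak. On its own scale the 28 members without Ifitm3 and Ifi27l2b summed to 937.1 and 794.7 CPM on day 0. Of 16 members tested, none fell between day 0 and day 1 and 1 rose, where 2.29% of all tested genes fell and 2.08% rose. The riser was Ifitm3, from 536 and 362 to 923 and 834 CPM (0.96 ± 0.25, edgeR adjusted p = 0.0255). This call was lost without day 0 replicate 2 (0.69, adjusted p = 0.343), day 1 replicate 1 (0.88, adjusted p = 0.208) or day 1 replicate 2 (1.03, adjusted p = 0.0845), and with library totals in place of TMM (1.08, adjusted p = 0.0756). At an unadjusted p under 0.05, 1 member was lower and 3 were higher, and of the 11 members that DESeq2 tested it called none lower and 1 higher. The medians of members and of all genes were 0.193 and 0.0262.

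On day 3 of this arm 2 of the 16 tested members were above day 0 and 2 were below, where 10% of all tested genes rose and 7.96% fell. The counts of members are thus near those shares, and this comparison was not repeated with plates left out. Oasl2 held 15.6 and 5.21 CPM on day 0 (10 and 2 UMIs) and 31 and 85 CPM on day 3 (9 and 28 UMIs). Its rise was 2.33 ± 0.64 (log2, SE; edgeR adjusted p = 0.012). Samd9l rose from 128 and 104 to 237 and 346 CPM (1.32 ± 0.27), and Trim25 (-0.98 ± 0.29) and Ifitm3 (-0.88 ± 0.27) fell. Of the other days, 1 member was lower than on day 0 on day 2 (Ifitm3, -0.81 ± 0.26; 4.31% of all genes), on day 4 (Ifi27l2b, -2.07 ± 0.39; 2.40%) and on day 5 (Ifi27l2b, -1.54 ± 0.28; 3.71%). On day 6 both were lower (Ifi27l2b -1.83 ± 0.34, Ifitm3 -1.22 ± 0.31; 2.95%). The enterocyte markers on the shared scale stood at 10471 and 10929 CPM on these day 3 plates and at 2547 and 3124 CPM on day 0. Their part was not tested. Between days 1 to 3 and days 4 to 6, Ifi27l2b fell by 1.49 ± 0.20 and Samd9l by 0.80 ± 0.21, where 1.92% of all genes fell. Samd9l fell short of the threshold under several alternatives, among them a replicate block (-0.79, adjusted p = 0.0579), DESeq2 (-0.81, adjusted p = 0.0679) and leaving out any 1 of 6 of the 12 plates (adjusted p 0.0673 to 0.129).

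Compared directly on day 0, the arms differed in most members. Of the 28 members tested in both tables, 23 were lower in the RANKL+CSRM617 plates and none was higher, where 7.07% of 8766 genes were lower and 2.75% higher. Ifit3, Oas3, Rsad2 and Ifi44, among the 23, pass the filter on low counts in the RANKL arm only through day 0. The filter may thus have fixed their calls here, and the arms were not compared without such members. No member was higher with DESeq2, which called 21 of the 26 it tested lower, or at an unadjusted edgeR p under 0.05, which 25 passed as lower. The median log2 difference was -2.21 for the members and 0.00251 for all genes. Oasl2 stood at 235, 184 and 223 CPM on the RANKL plates and at 16.3 and 5.5 CPM on the RANKL+CSRM617 plates (-4.16 ± 0.43, edgeR adjusted p = 2.92e-09). Irf7 stood at 76.4, 52.5 and 70.4 against 3.27 and 5.5 CPM (-4.04 ± 0.56), and Rtp4 at 213, 177 and 180 against 18 and 2.75 CPM (-3.98 ± 0.46). Ifi44 had 247 UMIs in the RANKL plates and none in the others, at least 33.7-fold higher against 3 counts over the 2 plates. Ifit3 had 227 UMIs against 1, a ratio of 92.8 (95% counting interval 16.5 to 3680), and Xaf1 141 against 1, a ratio of 57.7 (10.2 to 2290).

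The sensor Ddx58 stood at 96, 157 and 114 CPM against 8.17 and 22 CPM (-3.05 ± 0.40), and Ifi27l2b at 1330, 1130 and 1420 against 368 and 236 CPM (-2.09 ± 0.19). Ifit1, Cmpk2, Oas3, Rsad2, Ifit2, Oasl1 and Parp12 differed by -4.30 to -2.32 on the log2 scale. Parp14 stood between these and Ifi27, Dtx3l, Ifi35, Samd9l, Eif2ak2, Ifih1 and Lgals3bp, which differed by -1.87 to -0.87. The members that did not pass were Irf9 (-1.01 ± 0.36, adjusted p = 0.0723), Parp9 (-1.01 ± 0.77, adjusted p = 0.479), Stat2 (-0.86 ± 0.29, adjusted p = 0.056), Ifitm3 (-0.27 ± 0.20, adjusted p = 0.463) and Trim25 (-0.22 ± 0.18, adjusted p = 0.51). Leaving out 1 day 0 plate in turn left 17 to 24 members called. The calls so lost, in 1 or more of these fits, were those of Ifi35, Lgals3bp, Rsad2, Eif2ak2, Ifit2, Ifih1 and Oas3. A replicate block also ended the calls of Ifit2 (-2.87, adjusted p = 0.0596) and Ifih1 (-1.07, adjusted p = 0.0674).

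Beside this difference, 3 of 7 enterocyte markers were lower in the RANKL+CSRM617 plates of day 0 (Alpi, Apoa1 and Sis) and 0 were called higher. The sum of the 7 was 2547 and 3124 CPM against 4524 to 5962 CPM, and no marker was at 0. Reg3b, which was not called, went the other way, with 129 and 56 UMIs against 15, 0 and 62 on the RANKL plates. Of 9 immediate early genes, 4 were higher there (Atf3, Fos, Fosb and Ier3). Their part was not tested. Median UMIs per cell were lower over this arm, at 1800 to 3685 against 2968 to 6960. Of the other interferon-stimulated genes, 9 of 20 tested were lower and none higher, where 7.07% of all tested genes were lower and 2.75% higher.

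After day 0 fewer members differed between the arms. On days 1 to 3, Ddx58 was lower with CSRM617 (-1.85 ± 0.26) and Samd9l (0.49 ± 0.11), Ifih1 (0.55 ± 0.18) and Oasl2 (0.79 ± 0.22) were higher, 4 of 28 members, where 15.1% of all tested genes were lower and 13.4% higher. Without RANKL+CSRM617 day 3 replicate 2, Ifih1 (0.52, adjusted p = 0.0739) and Oasl2 (0.45, adjusted p = 0.26) did not pass. Leaving out day 1 replicate 1 (Oasl2, adjusted p = 0.0637), day 1 replicate 2 or day 2 replicate 1 (Ifih1, adjusted p = 0.0507 and 0.0869) of that arm also ended a call, and with a replicate block they gave adjusted p of 0.183 and 0.0729. On days 4 to 6, Ddx58 (-1.98 ± 0.44), Ifi27l2b (-1.11 ± 0.18), Ifi27 (-1.04 ± 0.32) and Ifitm3 (-0.58 ± 0.14) were lower and Parp14 (1.35 ± 0.32) was higher, where 13.7% of all tested genes were lower, 8.68% were higher and the median of all genes was -0.119. The call of Ifi27 was lost without RANKL day 4 replicate 2 (-0.76, adjusted p = 0.105) or RANKL+CSRM617 day 4 replicate 1 (-0.95, adjusted p = 0.108). That of Parp14 was lost without RANKL+CSRM617 day 4 replicate 1 (1.26, adjusted p = 0.0577), day 5 replicate 1 (0.82, adjusted p = 0.245) or day 6 replicate 2 (1.10, adjusted p = 0.0729). Ddx58 was thus lower with CSRM617 in each of the 3 comparisons of arms.

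The change from day 0 to days 1 to 3 itself differed between the arms in 17 of the 28 members, each with the smaller fall, or a rise, in RANKL+CSRM617, where 2.74% of all tested genes differed in that direction and 1.36% in the other. No member differed in the other direction with DESeq2, which called 12 of the 17 it tested, or at an unadjusted p under 0.05, which 23 passed. Of the 17 edgeR calls, 7 held under all alternatives other than thinning. The difference was 4.95 ± 0.49 for Oasl2 (log2, SE; edgeR adjusted p = 3.52e-08), 4.35 ± 0.64 for Irf7 and 2.11 ± 0.22 for Ifi27l2b. It was computed from the same day 0 plates as the comparison of arms on day 0, and the limit given there for Ifi44 and Rsad2 holds here too.

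Single cells were compared after each was thinned to 1000 UMIs, so that depth did not differ between cells. These UMIs were drawn from all genes of the arm's own table, 21099 for RANKL and 9257 for RANKL+CSRM617. UMIs per cell are therefore not on quite the same scale in the 2 arms. Of the 28 members that are in both tables, leaving out Ifitm3 and Ifi27l2b, a cell of the RANKL day 0 plates held 3.09 ± 0.114 UMIs on average (SD, n = 3), against 1.12 ± 0.101 on day 1 and 0.786 ± 0.208 (SD, n = 2) in the RANKL+CSRM617 day 0 plates. The share of cells with at least 3 UMIs was 46.8% ± 3.61 (SD, n = 3) on RANKL day 0, 10.5% ± 2.55 on day 1 and 4.28% ± 2.64 (SD, n = 2) on day 0 of the other arm. Without thinning these shares were 93.6%, 73.9% and 39.8%, at unequal depths. Later RANKL days lay between 3.71% on day 7 and 9.18% on day 2. At least 1 UMI was found in 83% of RANKL day 0 cells and in 53.2% of those of the other arm. In the RANKL day 0 plates, cells with at least 3 different members made up 43.8% ± 5.67. The variance between cells was 3.09 times the mean on RANKL day 0, 1.94 on day 1 and 1.01 in the RANKL+CSRM617 day 0 cells. This ratio can rise with the mean, which was also higher on RANKL day 0. It therefore does not compare the spread between cells at an equal level.

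**Figure D4:**
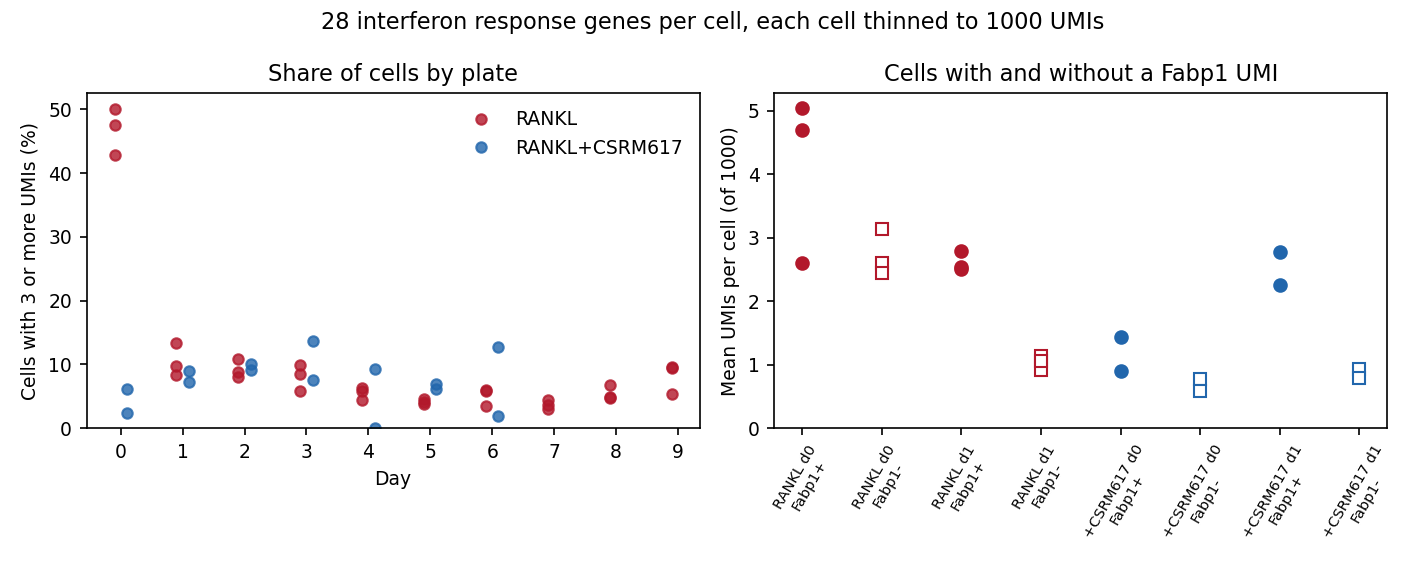
The 28 interferon response genes per cell after thinning to 1000 UMIs: at left the share of cells with 3 or more UMIs (percent, vertical axis) by day, 1 point per plate; at right the mean UMIs per cell (vertical axis) in cells with (filled circles) and without (open squares) a Fabp1 UMI on days 0 and 1, 1 point per plate. The RANKL day 0 plates reach 42.9% to 50% and no other plate exceeds 13.6%, and at right both kinds of RANKL day 0 cells, at 2.44 to 5.05 UMIs, lie above both kinds of RANKL+CSRM617 day 0 cells, at 0.581 to 1.44. Each arm was thinned over the genes of its own table.

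The members were then followed by kind of cell. Clusters were made without the members and the other interferon genes on the lists, and since clusters come from the same cells, no test was made between them. On RANKL day 0 most cells fell into 2 clusters that did not reach the marker rule for a name. The one with 259 day 0 cells was led by Gstm3 and Fabp1, whose product carries fatty acids in enterocytes, and the other, with 187, by Gm1123, Pttg1 and Rgcc. The 41 members of the RANKL table without Ifitm3 and Ifi27l2b had 4.55 UMIs per cell, after thinning, in the Fabp1 cluster (plates 4.23 to 4.88) and 1.83 in the Rgcc cluster (1.63 to 2.15), at median depths of 4900 to 6120 and 4610 to 6720 UMIs per cell. On days 5 to 9 the Rgcc cluster had 17 to 62 cells a day, with 0.73 to 1.26 member UMIs per cell, below its day 0 plates.

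Between these clusters 25 of the 43 members (58.1%) and 24 of the 35 tested (68.6%) were higher in the Fabp1 cluster in every plate, against 18.4% of all tested genes. With no overlap between plates, 21 of the 43 (48.8%) and 20 of the 35 (57.1%) were higher, against 12.3% of all tested genes. Ifit1 averaged 340 ± 166 CPM in the Fabp1 cluster and 40.9 ± 29.4 CPM in the Rgcc cluster (SD, n = 3), Irf7 106 ± 16.4 against 18.2 ± 6.72, Stat2 106 ± 16.2 against 28.9 ± 6.73 and Ifi44 140 ± 14 against 35 ± 13.7. Irf9 (94.7 ± 1.51 against 97.2 ± 66.1), Rsad2 (47 ± 15.5 against 37.5 ± 32.4), Eif2ak2 (124 ± 41.9 against 101 ± 18.8) and Trim25 (162 ± 8.43 against 129 ± 28.6) overlapped. Ifitm3 was the reverse, at 181 ± 45.4 CPM in the Fabp1 cluster and 1020 ± 173 CPM in the Rgcc cluster.

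**Figure D5:**
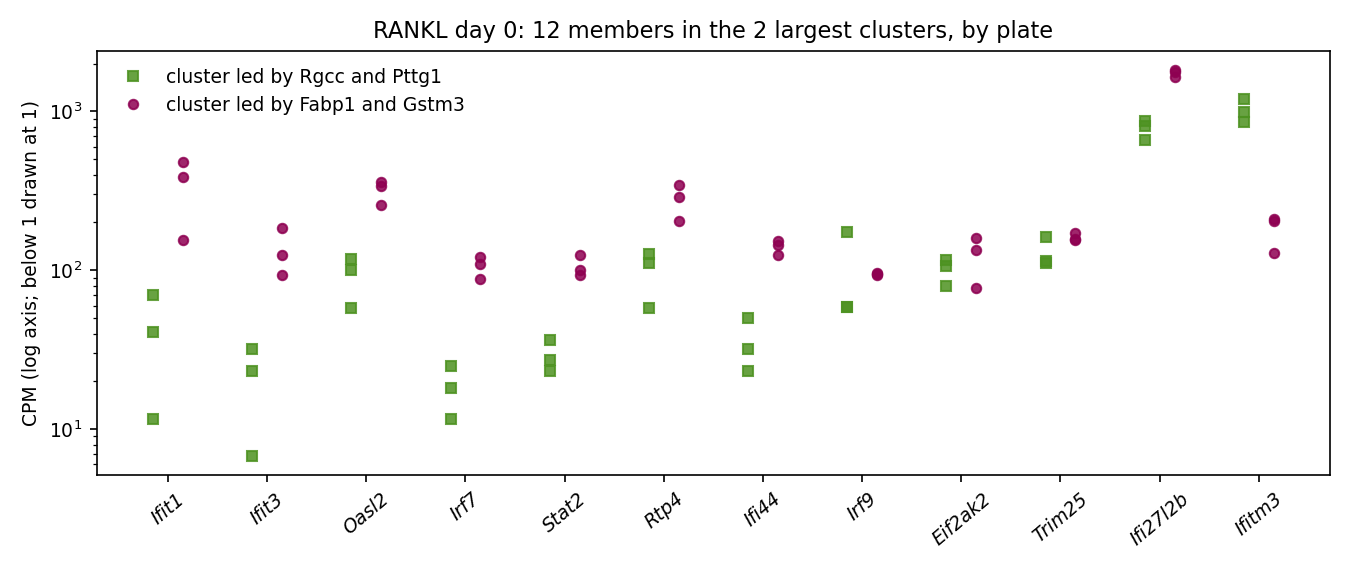
Level of 12 members (CPM, log vertical axis) in the 2 clusters that held most RANKL day 0 cells, 1 point per plate, with the Rgcc cluster as green squares and the Fabp1 cluster as purple circles. Ifit1, Ifit3, Oasl2, Irf7, Stat2, Rtp4, Ifi44 and Ifi27l2b are separated in favour of the Fabp1 cluster, Irf9, Eif2ak2 and Trim25 overlap, and Ifitm3 is higher in the Rgcc cluster.

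Cells were also split by a Fabp1 UMI after thinning, which can be done in both arms, with the same limit on the scale between them. It is a coarse split: in the RANKL day 0 plates 120 cells had such a UMI, while the Fabp1 cluster held 259. Cells with a Fabp1 UMI made up 19.2% to 25.3% of RANKL day 0 plates and 18.1% to 24% of RANKL+CSRM617 day 0 plates. The 28 members had 4.12 ± 1.33 UMIs per such cell in the RANKL plates (SD, n = 3) and 1.17 ± 0.382 in the others (SD, n = 2), and in cells without a Fabp1 UMI 2.73 ± 0.367 and 0.676 ± 0.135. The plates of the arms did not overlap on day 0 in either class. The part of the cells' makeup in this difference was not tested. Within RANKL day 0 replicate 2, which had 5 cells with a Fabp1 UMI, such cells held fewer member UMIs (2.6) than the others (3.14), the reverse of replicates 1 and 3. On day 1 cells with Fabp1 were 5.31% to 5.83% of RANKL plates and had 2.61 ± 0.157 member UMIs, against 1.03 ± 0.112 in cells without it (SD, n = 3). In the RANKL+CSRM617 plates of day 1 they were 4.04% to 6.25% and had 2.51 ± 0.375, against 0.854 ± 0.1 (SD, n = 2). The enterocyte-like cluster, which had 1 cell on day 0, gave 2.7 UMIs of the 41 members per cell on day 1, 1.45 on day 2 and 1.16 on day 3.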

How the data were processed

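Single-cell RNA was measured in 44 plates, 30 of the RANKL arm and 14 of the RANKL+CSRM617 arm. The deposited tables hold raw UMI counts per gene and well, which the authors had not normalized; per the submitters' processing notes kallisto, bustools, Seurat 3.1.5 and GRCm38 were used (the first 2 without a version). The deposited normalized tables were not used. The strand setting of the counting is not given, so reads of overlapping genes cannot be told apart.

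Cells with at least 1000 UMIs were summed per plate. Sums were tested with edgeR 4.0.16 in R 4.3.3 (TMM, filterByExpr, quasi-likelihood test, Benjamini-Hochberg adjustment over all genes, threshold 0.05) in 3 fits: all RANKL plates, all RANKL+CSRM617 plates, and both arms on days 0 to 6 over shared genes. The SE is the log2 change over the square root of F. Alternatives used DESeq2 1.42.0, other scalings, filters and cell sets, and plates left out. The fit was tested on simulated counts. Plates of 1 day differed beyond counting noise in all 37 pairs. Intervals and bounds cover counting error only. Clusters used Leiden (leidenalg 0.10.2, igraph 0.11.9); no doublet caller was run on the sorted wells. Plate values were given for up to 3 members per role with the highest mean log2 CPM in the RANKL arm, for members called later or between arms and for those tested in both arms; those of Bst2 were added after they were seen. The members, gene lists and tests were chosen with earlier results of these data known. One marker of the enterocyte list is not reported here and stays out of its sums and counts.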

Additional observations from a re-analysis of the deposited data

Results flagged for a closer look

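The change from day 0 to days 1 to 3 differed between the arms in 17 interferon response genes by the interaction term of the edgeR fit (adjusted p of 0.05 or less). Each value is the log2 change in RANKL+CSRM617 minus that in RANKL, and each was positive, because the RANKL plates fell from day 0 while the RANKL+CSRM617 plates fell less or rose. Among the effectors it was 4.95 for Oasl2, 4.47 for Ifit1, 2.65 for Oasl1 and 1.12 for Eif2ak2. For the factor Irf7 it was 4.35 and for the sensor Ifih1 1.58. The enzymes Cmpk2 and Rsad2 gave 4.06 and 4.58, the PARP group 2.17 for Parp14 and 1.37 for Dtx3l, and the secreted and membrane proteins 3.53 for Rtp4 and 0.89 for Lgals3bp. The remaining values were 5.88 for Xaf1, 2.11 for Ifi27l2b, 1.87 for Samd9l, 1.54 for Ifi27 and 9.01 for Ifi44. The filter on low counts may have fixed the calls of Ifi44 and Rsad2, as said above. Ifi44 had no UMI in the RANKL+CSRM617 day 0 plates, so its fitted value is no bound, and it did not pass without RANKL+CSRM617 day 3 replicate 1 (7.80, adjusted p = 1). Ifit1 did not pass without RANKL+CSRM617 day 2 replicate 2 (3.35, adjusted p = 0.391), and Cmpk2 and Rtp4 did not pass without day 3 replicate 2 of that arm (3.57 and 3.36, adjusted p = 0.108 and 0.149). Rsad2, with a main adjusted p of 0.0472, was lost under most alternatives: DESeq2 size factors (0.05004), library totals (0.0676), cells of 2000 or more UMIs (0.0614), a replicate block (0.0738), the omission of small plates (0.056) and most single plates left out, with 2.54 (adjusted p = 1) without RANKL+CSRM617 day 3 replicate 2. Leaving out 1 of the 5 day 0 plates also ended the calls of Lgals3bp, Rsad2, Eif2ak2, Ifih1, Ifi27 and Dtx3l in at least 1 case.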

How the results depend on the processing

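Of 107 calls of single members, none changed direction under the alternatives. In all, 66 held under every alternative in which they were tested and 41 were lost under at least 1. Likewise 96 held in all that neither left out 1 plate nor thinned cells, and 77 held when each plate was left out in turn. A call whose gene was not tested under an alternative was not counted as lost there. With thinning 80 of the 107 were tested, and with DESeq2 99. Thinning each cell to 1000 UMIs removed most of the counts and left fewer members tested: it gave 14 members called on RANKL day 1, 10 for days 7 to 9 against days 1 to 3, 6 in the class high on day 0 with a later change, 0 on RANKL+CSRM617 day 1 and 1 for its days 4 to 6, 13, 2 and 3 between the arms on day 0, days 1 to 3 and days 4 to 6, and 8 in the interaction. For RANKL+CSRM617 day 1 the count was 0 with library totals and 2 with no filter on low counts. For its days 4 to 6 it was 1 with DESeq2, with all wells and without plates of fewer than 40 cells. A replicate block gave 1 there and 2 between the arms on days 1 to 3, and in the other comparisons moved no count by over 1.5 times. Deviations of same-numbered plates had a median correlation of -0.00088 in the RANKL arm (135 pairs, -0.186 to 0.171). In the other arm it was -0.00552 (42 pairs, -0.252 to 0.259). No strong shared effect of the numbers was thus seen, but whether they mark a common culture or run stays unknown. Leaving out 1 plate gave 0 to 1 members called on RANKL+CSRM617 day 1, 1 to 4 for its days 4 to 6 and 2 to 4 between arms on days 1 to 3, and 29 to 33 on RANKL day 1, 17 to 24 between arms on day 0 and 12 to 19 in the interaction. Where 1 day 0 plate of an arm was left, it was assumed to vary like the other groups. The share of cells with at least 3 UMIs depends on depth and on the genes summed. On RANKL day 0, RANKL day 1, RANKL+CSRM617 day 0 and RANKL+CSRM617 day 1 it was 76.7%, 30.1%, 23.2% and 28% at 2000 UMIs, 93.6%, 73.9%, 39.8% and 46.6% without thinning, and 74.4%, 29.9%, 20% and 38.1% at 1000 UMIs with Ifitm3 and Ifi27l2b. The last of these settings, the omission of small plates and the filter without day 0 plates were chosen after seeing the data.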
